A study of Mus musculus with 22 samples.

Results

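Zfp-named genes encode zinc finger proteins, and 289 of them were described in mouse liver with and without a transplanted tumour. They are the protein-coding genes whose symbol is Zfp followed by a number and at most one letter, except Zfp871, with a mean of at least 1 CPM (counts scaled to a fixed library total) over 22 libraries. The table held 15448 genes, of which 334 were protein coding and Zfp-named; 44 of these fell below 1 CPM. They were thus selected on their measured level over all libraries, a rule that does not use the groups but into which a difference between them enters where a gene is low in one. On the scale of the rule, 9 members averaged under 1 CPM in some group and passed through the others: Zfp105, Zfp248, Zfp13, Zfp937 and Zfp428 were under it in CT, Zfp78, Zfp940 and Zfp273 in C26, and Zfp964 in C26-TDCA and C26. For these genes the direction of a difference was partly set by the rule. The members nearest above the limit were Zfp940 at 1.0, Zfp78 at 1.03 and Zfp937 at 1.05 CPM, and the genes nearest below it were Zfp456 at 0.925, Zfp493 at 0.894 and Zfp449 at 0.856 CPM.

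Most of these genes belong to the C2H2 class, in which a pair of cysteines and a pair of histidines hold a zinc ion and fold a short finger that reads a few bases of DNA. Many carry a KRAB domain at the start of the protein, which recruits the corepressor TRIM28 and, through it, histone methylation by SETDB1; such proteins silence retrotransposons and keep imprinted regions in place, and they have multiplied in clusters of near copies. Others bind RNA, act as ubiquitin or SUMO ligases, or activate transcription, and Zfp36, the gene of tristetraprolin, uses CCCH fingers to bind AU-rich elements in cytokine mRNAs and start their decay.

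Liver polyA RNA came from male wild-type mice of the CD2F1 strain, the hybrid of BALB/c and DBA/2, at an age not given in the labels. The C26-TDCA mice (n = 8) received C26 cells, a mouse colon carcinoma that causes wasting, and 10 mg/kg of the bile acid taurodeoxycholic acid (TDCA) daily into the peritoneum. The C26 mice (n = 8) received C26 cells alone, and the control mice (CT, n = 6) a sham injection and vehicle. No group received TDCA without a tumour, so the effect of the bile acid in a healthy liver cannot be told apart from its effect under a tumour. Each library is given as a separate mouse.

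Libraries held 20.5 to 28.3 M counts in C26-TDCA livers, 17.5 to 28.1 M counts in C26 livers and 16.5 to 25.3 M counts in CT livers, and 3 counts corresponded to between 0.106 and 0.182 CPM. Hepatocyte markers were abundant throughout, with 6 of them summing to 28945 to 35927 CPM in C26-TDCA, 26521 to 34982 CPM in C26 and 59029 to 67099 CPM in CT. Much of that sum was Alb, with means of 14135 CPM in C26-TDCA, 15181 CPM in C26 and 42189 CPM in CT. Of the 6, 3 were called lower in C26 than in CT and 3, Apoa1 and Apob among them, were not called. In C26-TDCA relative to CT, 3 were lower and 1 was higher. Of 6 intestinal epithelium markers, 5 (Cdx1, Cdx2, Vil1, Cdh17 and Krt20) were too low to be tested; the other, Lgals4, was lower in C26. The 8 Kupffer cell markers summed to 454 to 589 CPM in C26-TDCA, 354 to 536 CPM in C26 and 220 to 257 CPM in CT, and all 8 were called higher in C26 than in CT. The 6 sinusoidal endothelial markers were also all called higher in C26, with sums of 346 to 426 CPM in C26-TDCA, 246 to 440 CPM in C26 and 171 to 218 CPM in CT. Of 6 stellate cell markers 4 were higher and 2 lower in C26, and the sums were 363 to 480 CPM in C26-TDCA, 286 to 462 CPM in C26 and 220 to 287 CPM in CT. Of 5 cholangiocyte markers 2 were higher and 3 not called, and the sums were 260 to 637 CPM in C26-TDCA, 239 to 763 CPM in C26 and 19.3 to 32.6 CPM in CT. Of 8 T, NK and B cell markers 4 could be tested, and 1 was lower. For monocytes and neutrophils 7 of 8 markers were higher, with sums of 17.7 to 44.1 CPM in C26-TDCA, 19.5 to 50.8 CPM in C26 and 2.41 to 6.57 CPM in CT. Whole liver was sequenced, so fewer cells of a type and less RNA per cell cannot be told apart. The part of these cells in the differences of the zinc finger genes was not tested.

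The zinc finger genes were many and individually low. Their median mean level was 6.53 CPM, 38 were under 2 CPM and 100 reached 10 CPM. Per kilobase of the longest transcript the median was 1.73 CPM, and the highest were Zfp36 at 41.2 and Zfp445 at 27.0 CPM per kilobase. A C2H2 finger pattern counted in the translated GENCODE protein found a median of 10 fingers and up to 36 in Zfp142, while 6 members had none, among them Zfp36, Zfp750 and Zfp703. A KRAB pattern was found in 155 members, which had a median of 12 fingers and 1.29 CPM per kilobase. The 134 without it had 7.0 fingers and 2.40 CPM per kilobase. The pattern can miss divergent domains, as in Zfp568, whose protein is known to act through TRIM28. Transcripts of the members were poorer in GC than those of all genes tested, with medians of 43.7% against 49.3%, and the KRAB members were the poorest, at 41.4%.

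Promoters of Zfp105, Zfp13, Zfp157, Zfp445, Zfp970 and Zfp971, members named below, are shown because they let the near copies be told from the single genes. They are from RefSeq, GRCm38.p6, and run from 250 bases before to 50 bases after the annotated start, on the strand of the gene. For Zfp105 at chr9:122922828-122923127 (plus strand), Zfp13 at chr17:23599438-23599737 (minus strand), Zfp157 at chr5:138441226-138441525 (plus strand) and Zfp445 at chr9:122865957-122866256 (minus strand), capitals mark matches to TTCNNNGAA, the palindrome that STAT factors bind, or to CCGGAAG, an ETS core, on either strand.
Zfp105: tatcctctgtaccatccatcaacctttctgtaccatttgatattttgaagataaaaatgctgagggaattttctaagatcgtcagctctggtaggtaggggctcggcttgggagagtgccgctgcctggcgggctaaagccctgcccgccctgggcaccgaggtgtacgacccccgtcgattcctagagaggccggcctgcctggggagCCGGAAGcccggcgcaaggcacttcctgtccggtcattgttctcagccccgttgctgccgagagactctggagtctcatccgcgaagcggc
Zfp13: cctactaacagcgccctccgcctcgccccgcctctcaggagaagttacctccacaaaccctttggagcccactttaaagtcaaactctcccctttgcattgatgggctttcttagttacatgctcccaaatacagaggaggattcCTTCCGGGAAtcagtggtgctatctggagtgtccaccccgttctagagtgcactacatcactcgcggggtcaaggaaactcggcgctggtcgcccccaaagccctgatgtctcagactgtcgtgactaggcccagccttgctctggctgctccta
Zfp157: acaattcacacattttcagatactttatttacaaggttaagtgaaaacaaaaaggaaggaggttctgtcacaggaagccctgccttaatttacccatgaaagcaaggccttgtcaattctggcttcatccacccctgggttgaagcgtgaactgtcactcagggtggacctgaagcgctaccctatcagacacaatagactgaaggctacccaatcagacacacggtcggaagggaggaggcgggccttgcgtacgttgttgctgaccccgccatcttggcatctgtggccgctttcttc
Zfp445: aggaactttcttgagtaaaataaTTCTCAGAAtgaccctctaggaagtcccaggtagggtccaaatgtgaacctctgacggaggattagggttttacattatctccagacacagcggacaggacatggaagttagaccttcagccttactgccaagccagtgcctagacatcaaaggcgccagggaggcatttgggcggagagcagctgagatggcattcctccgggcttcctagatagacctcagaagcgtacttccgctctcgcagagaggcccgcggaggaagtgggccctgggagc
Zfp105 held 1 ETS match, Zfp13 held an ETS and a STAT match that share bases, Zfp445 held 1 STAT match and Zfp157 held none.

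For the near copies Zfp970 at chr2:177464492-177464791 and Zfp971 at chr2:178023034-178023333, both on the plus strand, capitals mark the bases that differ between them.
Zfp970: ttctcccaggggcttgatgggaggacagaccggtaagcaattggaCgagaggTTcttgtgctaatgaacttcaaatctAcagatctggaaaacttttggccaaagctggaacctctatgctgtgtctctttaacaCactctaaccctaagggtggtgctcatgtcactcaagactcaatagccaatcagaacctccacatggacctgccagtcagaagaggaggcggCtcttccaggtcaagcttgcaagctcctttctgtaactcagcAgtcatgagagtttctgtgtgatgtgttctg
Zfp971: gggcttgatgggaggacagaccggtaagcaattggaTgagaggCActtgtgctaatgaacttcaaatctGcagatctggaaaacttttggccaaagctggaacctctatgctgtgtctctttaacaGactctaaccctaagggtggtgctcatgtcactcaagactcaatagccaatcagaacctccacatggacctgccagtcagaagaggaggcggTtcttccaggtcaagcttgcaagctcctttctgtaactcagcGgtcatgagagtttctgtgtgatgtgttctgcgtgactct
The windows differ at 7 of 291 aligned bases, an identity of 97.6%, and the translated proteins are 86.3% identical. Of the 50-base words of the longest transcript, 57.2% in Zfp970 and 42.4% in Zfp971 also occur, on either strand, in transcripts of other genes. How reads were divided between near copies could thus change both values. Zfp105, Zfp13 and Zfp445 share no such word with another gene, and Zfp157 shares 1.2%.

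Of the members, 243 had a promoter in the RefSeq table. A match to TTCNNNGAA was found in 19.3% of them, against 9.55% of 27025 genes with a promoter, and a match to CCGGAAG in 23.5%, against 9.93%. The 27025 genes were not limited to protein-coding genes or by level in liver, as the members were, so the sets are unlike. Matches on both strands were counted, and STAT and ETS matches can overlap. Among members with a promoter that were higher in C26 than in CT, 7 of 49 held the STAT letters and 17 of 49 the ETS letters, against 6 and 11 of 49 that were lower. A match is a description of the letters and not a bound site.

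The first comparison, C26 with CT, asks how the tumour-bearing liver differs from the sham liver. In C26 livers 68 of the 289 zinc finger genes were higher and 57 lower at an adjusted p under 0.05 (edgeR's quasi-likelihood test, Benjamini-Hochberg over 14785 genes), and 164 were not called. The called share of 43.3% stood against 58.1% of all genes tested, where 28.9% were higher and 29.2% lower. Differences were small, with a median absolute log2 fold change of 0.25 for the members and 0.40 for all genes, and 11 members differed by more than 1 on the log2 scale. The median log2 fold change was 0.01 for the members and 0.00 for all genes. Against a log2 fold change of 0.5 (glmTreat), 15 members were higher and 6 lower, where 13.4% and 11% of all genes were (24.4% in either direction). Upper-quartile scaling moved the split to 81 higher and 43 lower, and the members' median log2 fold change to 0.08. The shares of all genes called under that scaling were not taken, so these counts cannot be set against the shares above.

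The gene with the largest rise, Zfp105, encodes 11 fingers without a KRAB match and lies on chromosome 9 at 122923072 to 122931028. Its lowest, median and highest levels were 1.36, 2.29 and 3.75 CPM in C26-TDCA, 1.49, 2.24 and 3.13 CPM in C26, and 0.262, 0.499 and 0.904 CPM in CT. Every tumour-bearing liver was above every CT liver, and the C26-TDCA and C26 livers overlapped each other. The log2 fold change was 2.02 ± 0.28 (SE, adjusted p = 1.42e-06) in C26 and 2.17 ± 0.28 (adjusted p = 4.30e-07) in C26-TDCA, each relative to CT. Zfp105 passed the 1 CPM limit through the tumour-bearing livers, so its rise was partly set by the rule and these values are a description.

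Zfp248 and Zfp9, KRAB genes next to each other on chromosome 6 (118427319 to 118455528 and 118461950 to 118479320, both on the minus strand), were both higher in C26. Zfp248 spanned 0.858, 1.35 and 2.88 CPM (lowest, median and highest) in C26-TDCA, 1.13, 1.78 and 2.43 CPM in C26, and 0.113, 0.473 and 0.997 CPM in CT. The C26 and CT livers were apart, and 3 C26-TDCA livers lay below the highest CT liver. Zfp248 passed the 1 CPM limit through the tumour-bearing livers, so its rise was partly set by the rule. Its log2 fold change in C26 was 1.90 ± 0.36 (adjusted p = 6.97e-05), and that of Zfp9 was 1.15 ± 0.22 (adjusted p = 7.27e-05), with medians of 5.78 CPM in C26-TDCA, 7.31 CPM in C26 and 3.06 CPM in CT. For Zfp9 the groups overlapped. The 2 proteins are 51.0% identical and their transcripts share 2.2% (Zfp248) and 1.5% (Zfp9) of 50-base words with other genes.

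Zfp13, with 8 fingers and a GC-rich transcript (59.1%), lies at the end of a cluster on chromosome 17. Its lowest, median and highest levels were 1.51, 2.03 and 2.78 CPM in C26-TDCA, 1.13, 1.58 and 3.12 CPM in C26, and 0.420, 0.763 and 1.24 CPM in CT. All C26-TDCA livers lay above CT, while the C26 range touched it. The log2 fold change was 1.21 ± 0.25 (adjusted p = 1.97e-04) in C26 and 1.43 ± 0.25 (adjusted p = 2.50e-05) in C26-TDCA relative to CT. Zfp13 also passed the 1 CPM limit through the tumour-bearing livers, so its rise was partly set by the rule.

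Among better expressed genes that rose, Zfp750, which drives the differentiation of epidermis, was called higher without overlap. It ranged from 18.8 to 27.6 CPM with a median of 21.1 in C26-TDCA, from 17.8 to 27.7 with a median of 22.9 in C26, and from 10.4 to 16.3 with a median of 11.4 in CT (log2 fold change in C26 0.94 ± 0.10, adjusted p = 3.04e-08). Its gene body overlaps Tbcd on the opposite strand, and the strand setting of the counts is not given in the sources used here. Zfp27, a KRAB gene with 21 fingers, had medians of 6.94 CPM in C26-TDCA, 7.04 CPM in C26 and 3.78 CPM in CT, also with no overlap between tumour-bearing and CT livers (log2 fold change in C26 0.99 ± 0.13, adjusted p = 2.88e-07). Zfp334 (1.09), Zfp518b (1.0), Zfp937 (1.17) and Zfp618 (0.91) completed the 10 largest log2 fold changes upward in C26. Of these, Zfp937 shares 31.5% of its 50-base words with other genes. Of these 10, Zfp105, Zfp248, Zfp13 and Zfp937 passed the limit through the tumour-bearing livers, so their rise was partly set by the rule and their values are a description.

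**Figure D1:**
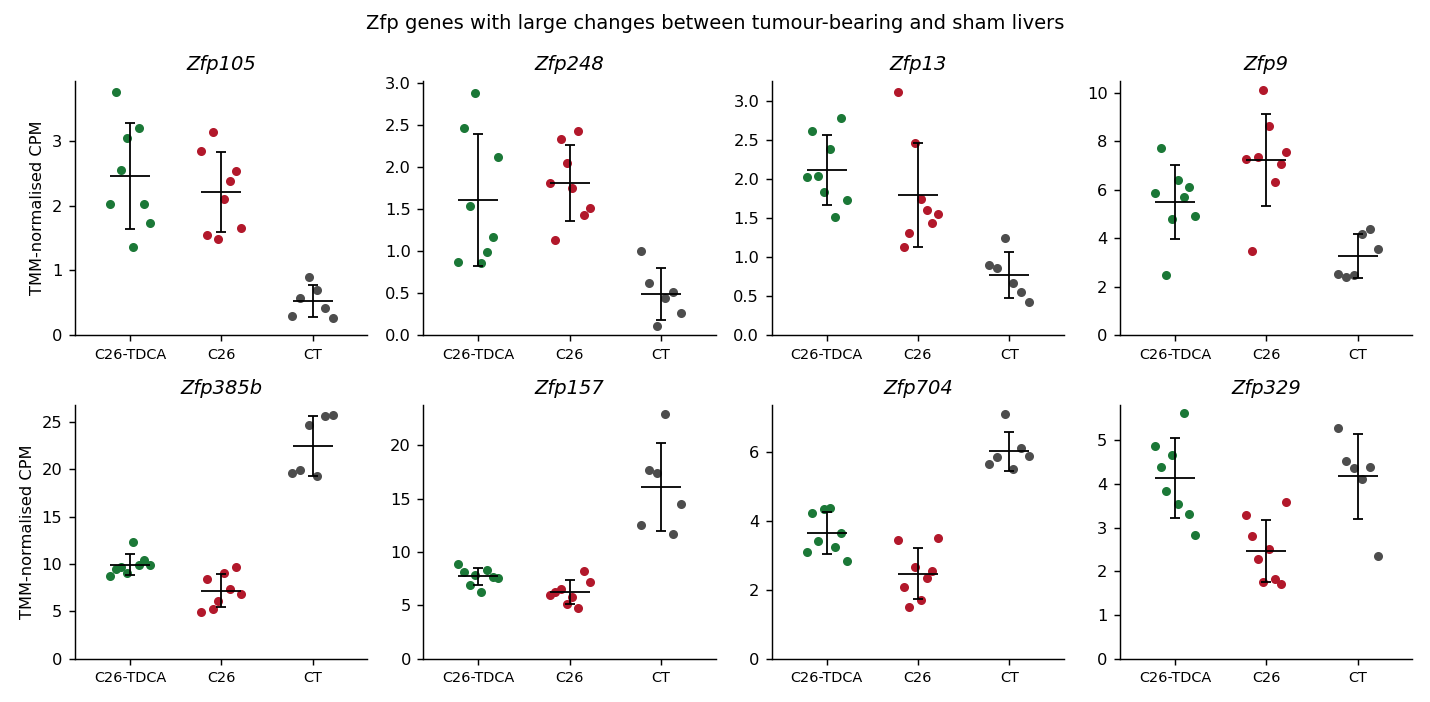
Levels of 8 zinc finger genes in TMM-normalised CPM (y axes from 0) in C26-TDCA (n = 8), C26 (n = 8) and CT (n = 6) livers; points are mice, bars the mean and SD. Zfp105, Zfp248, Zfp13 and Zfp9 were higher in C26 than in CT livers, and Zfp385b, Zfp157, Zfp704 and Zfp329 were lower. Zfp105, Zfp248 and Zfp13 passed the 1 CPM limit through the tumour-bearing livers, so their rise was partly set by the rule.

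Zfp385b showed the largest fall. It encodes a relative of the RNA- and p53-binding protein of Zfp385a. Its lowest, median and highest levels were 8.76, 9.83 and 12.3 CPM in C26-TDCA, 4.97, 7.08 and 9.66 CPM in C26, and 19.3, 22.3 and 25.8 CPM in CT. All tumour-bearing livers lay below all CT livers. The log2 fold change was -1.65 ± 0.13 (adjusted p = 6.86e-11) in C26 and -1.17 ± 0.12 (adjusted p = 1.69e-08) in C26-TDCA relative to CT. Zfp385a itself went the other way, with medians of 9.73 CPM in C26-TDCA, 11.1 CPM in C26 and 7.22 CPM in CT and a log2 fold change of 0.64 ± 0.11 in C26 (adjusted p = 1.54e-05). The 2 proteins are 57.2% identical.

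Zfp157, a KRAB gene with 11 fingers, had lowest, median and highest levels of 6.24, 7.77 and 8.88 CPM in C26-TDCA, 4.77, 6.10 and 8.22 CPM in C26, and 11.7, 15.9 and 22.9 CPM in CT. Neither tumour group overlapped CT, and its log2 fold change in C26 was -1.37 ± 0.13 (adjusted p = 3.97e-09). Zfp704 spanned 2.84, 3.53 and 4.37 CPM in C26-TDCA, 1.49, 2.44 and 3.51 CPM in C26, and 5.49, 5.87 and 7.08 CPM in CT. It too was apart from CT in both groups (log2 fold change in C26 -1.27 ± 0.16, adjusted p = 2.09e-07).

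The near copies Zfp970 and Zfp971 were both lower in C26. Zfp970 had lowest, median and highest levels of 11, 21.4 and 32.5 CPM in C26-TDCA, 10.6, 12.8 and 16.4 CPM in C26, and 20.9, 28.8 and 43.0 CPM in CT. The C26 and CT ranges did not meet, and the C26-TDCA livers spread over both. The log2 fold change in C26 was -1.21 ± 0.17 (adjusted p = 1.36e-06) for Zfp970 and -0.96 ± 0.27 (adjusted p = 0.00416) for Zfp971, whose medians were 3.04 CPM in C26-TDCA, 1.66 CPM in C26 and 3.86 CPM in CT. For both genes the division of shared reads is uncertain, as shown by the sequences above.

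The other 5 of the 10 largest falls in C26 were Zfp81 (-0.87), Zfp28 (-0.80), Zfp467 (-0.77), Zfp329 (-0.75) and Zfp141 (-0.71, all log2 fold changes). Zfp81, Zfp467 and Zfp141 had no overlap between C26 and CT, and Zfp28 and Zfp329 did. Zfp141 and Zfp28 share 11.9% and 16.4% of their 50-base words with other genes.

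By known role, the genes that act on chromatin and imprinting were mixed. Zfp445, which protects imprinted regions from losing methylation, ranged from 154 to 213 CPM with a median of 194 in C26-TDCA, from 104 to 161 with a median of 137 in C26, and from 141 to 221 with a median of 174 in CT. The groups overlapped, and it fell in C26 with a log2 fold change of -0.41 ± 0.11 (adjusted p = 0.00240). Of the 8 members listed for this role, 3 rose and 2 fell in C26, where 28.9% of all genes tested were higher and 29.2% lower. Zfp217, a partner of the CoREST repressor complex, rose by 0.37 ± 0.08 (adjusted p = 5.91e-04), and Zfp592 (0.23) and Zfp687 (0.29), which bind each other and ZMYND8, rose by less on the log2 scale. Zfp592 and Zfp687 were not called once the trend with transcript length and GC was removed (0.06, adjusted p = 0.447, and 0.05, adjusted p = 0.647).

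Zfp568, a repressor of the placental Igf2 transcript, was at a median of 20.2 CPM in C26-TDCA, 15.3 CPM in C26 and 17.7 CPM in CT (log2 fold change in C26 -0.28 ± 0.12, adjusted p = 0.0426). That call was lost when any one of C26 replicates 3, 5, 6, 7 and 8 or CT replicates 5, 6 and 8 was left out, with adjusted p between 0.0504 and 0.135. Zfp809 and Zfp932, which silence retroviral elements, had log2 fold changes of 0.12 (adjusted p = 0.428) and 0.11 (adjusted p = 0.358) in C26, and Zfp410, the activator of Chd4, had 0.01 (adjusted p = 0.924). Zfp57, the best known imprinting factor of the class, averaged 0.670 CPM and is not a member. It was tested, and the 9 tested genes listed for chromatin and imprinting had 4 higher and 2 lower in C26. The 8 members had 3 and 2, so Zfp57 was called higher.

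Of the 10 members listed as transcription factors, 3 rose and 2 fell in C26, shares near or below the 28.9% and 29.2% of all genes tested. Zfp746, which represses the gene of PGC-1alpha, ranged from 22.9 to 32.8 CPM with a median of 26.4 in C26-TDCA, from 21.5 to 33.7 with a median of 29.6 in C26, and from 14.3 to 19.5 with a median of 17.0 in CT. No tumour-bearing liver overlapped CT (log2 fold change in C26 0.75 ± 0.10, adjusted p = 7.37e-07). Zfp281, a factor of pluripotent cells, was likewise apart, with medians of 39.5 CPM in C26-TDCA, 31.1 CPM in C26 and 22.7 CPM in CT and a log2 fold change of 0.50 ± 0.09 in C26 (adjusted p = 4.35e-05). Zfp703, a corepressor, rose by 0.42 ± 0.12 (adjusted p = 0.00347), which was 0.17 (adjusted p = 0.169) with the length and GC trend removed. Zfp148 fell by 0.34 ± 0.09 on the log2 scale (adjusted p = 0.00326).

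Zfp652 fell by 0.27 ± 0.10 on the log2 scale in C26 (adjusted p = 0.0233), and was not called without CT replicate 1 (-0.21, adjusted p = 0.0745). Zfp143, an activator that binds near transcription starts, had 0.26 ± 0.12 (adjusted p = 0.0733) and was called without C26 replicate 5 (0.29, adjusted p = 0.0489), 6 (0.31, adjusted p = 0.0347) or 7 (0.30, adjusted p = 0.0417). Zfp30, Zfp335, Zfp64 and Zfp692 were not called in C26, with log2 fold changes between -0.20 and 0.19.

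Of the 7 RNA-binding members, 1 was higher and 1 lower, a called share of 28.6% against 58.1% of all genes tested. Zfp36 ranged from 84.0 to 171 CPM with a median of 113 in C26-TDCA, from 84.1 to 196 with a median of 114 in C26, and from 56.5 to 188 with a median of 91.1 in CT. The groups overlapped widely, and 1 CT liver (replicate 1) was at the top of its group. The log2 fold change in C26 was 0.28 ± 0.22 (adjusted p = 0.283), and without that liver it was 0.55 (adjusted p = 0.0197). Zfp106 fell by 0.39 ± 0.08 (adjusted p = 1.26e-04) and Zfp385a rose, as given above. Zfp326, a splicing factor partner, Zfp346, a binder of double-stranded RNA, Zfp622, a ribosome assembly factor, and Zfp638 had log2 fold changes between -0.10 and 0.03 and were not called.

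Of 20 mRNAs listed as tristetraprolin targets 14 were tested, and of these 9 were higher in C26 and 2 lower, with a median log2 fold change of 1.32, where 28.9% and 29.2% of all genes were called. Cxcl1, a neutrophil chemokine, led them with medians of 321 CPM in C26-TDCA, 318 CPM in C26 and 12.4 CPM in CT (log2 fold change 4.70 ± 0.17, adjusted p = 5.48e-17). Of 21 genes of the tristetraprolin family and of deadenylation, 3 were higher (14.3%) and 6 lower (28.6%). The deadenylase Cnot6l fell by 0.74 ± 0.06 on the log2 scale (adjusted p = 2.10e-10), and the paralogue Zfp36l1 rose by 0.84 ± 0.17 (adjusted p = 1.67e-04).

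Among ubiquitin and SUMO factors, Zfp91, a ubiquitin ligase of the NF-kB-inducing kinase, was at 90.5 to 96.7 CPM with a median of 93.3 in C26-TDCA, 68.8 to 99.1 with a median of 86.9 in C26, and 108 to 124 with a median of 112 in CT. The tumour-bearing livers were all below CT, and the log2 fold change in C26 was -0.40 ± 0.06 (adjusted p = 7.48e-06). Its body overlaps Cntf on the same strand. Zfp598, the ligase that marks collided ribosomes, had 0.12 ± 0.05 in C26 (adjusted p = 0.0644) and -0.14 (adjusted p = 0.0396) with the length and GC trend removed, so its direction depends on that trend. It was called without C26 replicate 4 (0.13, adjusted p = 0.0395) or CT replicate 2 (0.14, adjusted p = 0.0311). The SUMO ligase gene Zfp451 and the spindle factor gene Zfp207 were not called, at 0.12 (adjusted p = 0.232) and -0.02 (adjusted p = 0.812).

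Of 6 genes listed as known from fat tissue, 3 were members. Of these, 2 were lower and none higher in C26, where 29.2% of all genes tested were lower. The 5 tested genes of that list, members or not, had 2 lower, 3 not called and a median log2 fold change of 0.02. In C26-TDCA relative to CT, 1 of the 5 was higher and 2 were lower. Zfp467, which steers marrow progenitors towards adipocytes, had medians of 12.6 CPM in C26-TDCA, 12.8 CPM in C26 and 21.7 CPM in CT, with no overlap between tumour-bearing and CT livers (log2 fold change in C26 -0.77 ± 0.10, adjusted p = 4.48e-07). Zfp516, a partner of PRDM16 in brown fat, had medians of 5.13 CPM in C26-TDCA, 4.75 CPM in C26 and 7.83 CPM in CT (-0.64 ± 0.11 in C26, adjusted p = 3.19e-05). Zfp407 was not called (0.02, adjusted p = 0.925).

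Some calls by role depended on the trend with transcript length and GC. After its removal, Zfp451 (0.31, adjusted p = 0.0114), Zfp638 (0.21, adjusted p = 0.0230), Zfp932 (0.30, adjusted p = 0.0224) and Zfp692 (-0.36, adjusted p = 0.0148) were called in C26 relative to CT. Zfp217 was then at 0.18 (adjusted p = 0.0415) and Zfp148 at -0.15 (adjusted p = 0.0158), both less than as fitted. Under upper-quartile scaling, Zfp568 and Zfp652 were not called, and Zfp143, Zfp598 and Zfp64 were called higher.

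Of 27 genes of the corepressor machinery that KRAB proteins use, 4 were higher (14.8%) and 11 lower (40.7%) in C26, with a median log2 fold change of -0.16. The called share of 55.6% was close to the 58.1% of all genes tested, where 28.9% were higher and 29.2% lower. Trim28 itself was not called (-0.13, adjusted p = 0.123), with medians of 52.0 CPM in C26-TDCA, 55.9 CPM in C26 and 60.1 CPM in CT. Cbx5, the gene of the heterochromatin protein HP1alpha, had medians of 29.8 CPM in C26-TDCA, 23.9 CPM in C26 and 35.8 CPM in CT. The C26 and CT livers did not overlap (log2 fold change -0.58 ± 0.06, adjusted p = 3.54e-08). Rbbp4, a histone chaperone, fell by 0.72 ± 0.08 on the log2 scale (adjusted p = 6.46e-08), and the DNA methyltransferase gene Dnmt3b rose by 1.31 ± 0.17 (adjusted p = 3.38e-07). Among 36 C2H2 genes with other names, 7 were higher and 7 lower (19.4% each).

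The test of a difference between KRAB members and the rest was not made, and their counts are given side by side. Of 155 with a KRAB match, 32 were higher and 32 lower in C26, and of 134 without it 36 were higher and 25 lower. After removal of the length and GC trend, the counts were 39 and 20 for the KRAB members and 28 and 35 for the others, so the balance of directions in either group depends on the trend. All 14785 genes tested had more lower than higher calls in that fit, 4848 against 4017, as did the members without a KRAB match but not those with it. When all genes tested were cut by GC into 3 equal classes, members of the lowest class (46.3% or less) had 28 higher and 43 lower of 175, and those of the highest class (over 52.5%) had 17 and 6 of 53. Over all genes tested in these classes, 21.3% were higher and 34.9% lower at low GC, and 35.4% and 23.8% at high GC.

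By position, 116 members lay in 12 clusters, defined as at least 5 members with at most 500 kb between the starts of neighbours, and chromosomes 7, 17 and 13 held 71, 39 and 27 members. The cluster on chromosome 13 from 67121660 to 67827002 holds 18 members, all with a KRAB match, of which 4 were lower in C26 and none higher. The lower share of 22.2% was below the 29.2% of all genes tested. With the length and GC trend taken out 2 were lower and none higher, where 4848 of the 14785 genes tested were lower. The median log2 fold change of this cluster was -0.18, or -0.08 in that fit. On chromosome 17, the cluster from 32815449 to 33631779 had 5 lower (45.5%) and none higher of 11, and 3 lower and none higher with the trend removed. Its median was -0.31, or -0.21 with the trend removed. The larger cluster on the same chromosome, from 21008903 to 23599487, had 6 higher and 5 lower of 20, so neighbours there differed in direction. In it Zfp40 and Zfp53 rose, by 0.89 ± 0.16 (adjusted p = 5.01e-05) and 0.75 ± 0.15 (adjusted p = 1.24e-04). Members of a cluster can be related in sequence and share reads. Of all 289 members, in a cluster or not, 43 share more than 20% of their 50-base words with other genes. Words on either strand and in any other gene were counted, so this number does not measure sharing within clusters.

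**Figure D2:**
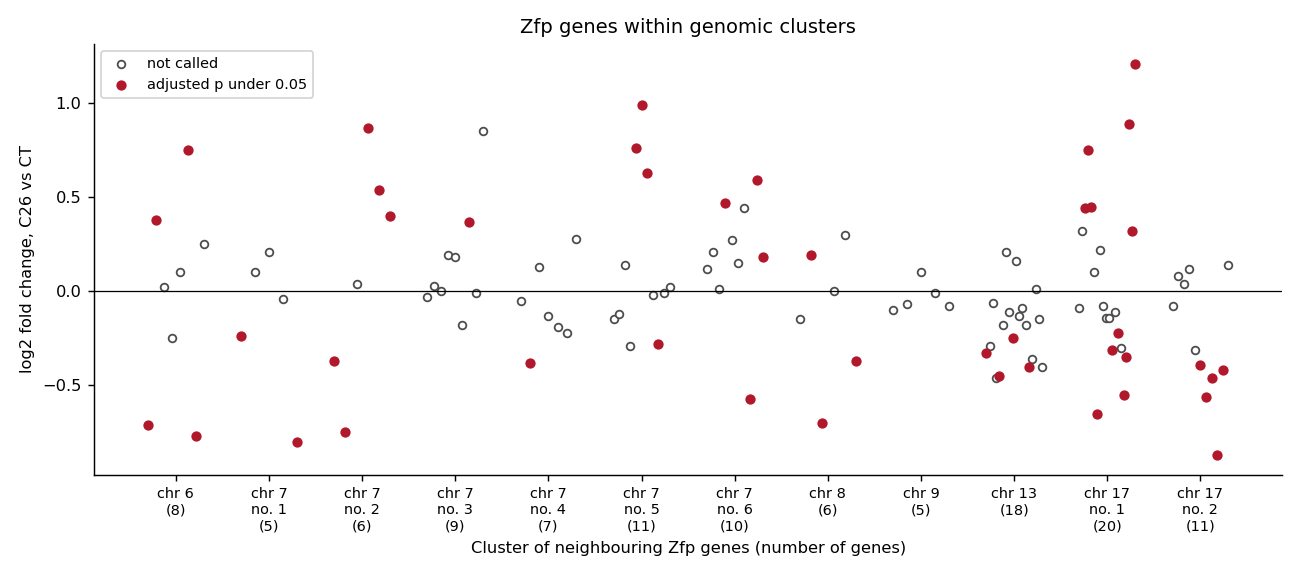
Log2 fold change in C26 relative to CT (y axis) of the 116 zinc finger genes in 12 genomic clusters, ordered by start within each cluster; the number of genes is in parentheses, filled points have an adjusted p under 0.05 and open points do not. The clusters of 18 genes on chromosome 13 and of 11 genes on chromosome 17 hold 4 and 5 lower calls and no higher ones, where 29.2% of all genes tested were lower. After removal of the trend on length and GC they hold 2 and 3 lower, where 4848 of the 14785 genes tested were lower. The cluster of 20 genes on chromosome 17 holds 6 higher and 5 lower.

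The second comparison, C26-TDCA with C26, asks what the bile acid changed in tumour-bearing livers. Here 10 of 289 members were higher, none was lower by edgeR and 279 were not called, a share of 3.46% called higher against 1.73% of all genes tested (0.237% lower, 1.97% in either direction). At an unadjusted p under 0.05 there were 53 of 289 members in either direction, against 2335 of the 14785 genes tested. DESeq2 called 18 members higher and none lower, and its share over all genes was not taken. The median log2 fold change of the members was 0.06, against -0.01 for all genes. None passed the test against a log2 fold change of 0.5.

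Zfp445, the imprinting factor whose levels are given above, led in abundance among them. The C26-TDCA livers lay towards the top of the C26 range and beyond, with some overlap, and the log2 fold change was 0.49 ± 0.10 (adjusted p = 0.0174). For the 2 largest differences, Zfp329 had lowest, median and highest levels of 2.84, 4.11 and 5.62 CPM in C26-TDCA and 1.72, 2.40 and 3.59 CPM in C26 (0.74 ± 0.18, adjusted p = 0.0285). Zfp970 had a log2 fold change of 0.70 ± 0.16 (adjusted p = 0.0255), with the uncertainty of its shared reads. Both genes overlapped between the groups.

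Zfp715, a KRAB gene with 18 fingers, was the one called member whose groups did not overlap. The share of all genes tested without overlap was not taken. It had 12.6, 13.8 and 15.2 CPM (lowest, median and highest) in C26-TDCA and 8.52, 10.8 and 12.5 CPM in C26, a log2 fold change of 0.37 ± 0.09 (adjusted p = 0.0331). Zfp644 had 17.9, 21.3 and 23.4 CPM in C26-TDCA and 12.3, 16.3 and 18.3 CPM in C26 (0.42 ± 0.08, adjusted p = 0.0143), and its ranges met at the edges. The others were Zfp385b (0.47, adjusted p = 0.0408), Zfp369 (0.43, adjusted p = 0.0186), Zfp397 (0.41, adjusted p = 0.0233), Zfp950 (0.35, adjusted p = 0.0248) and Zfp281 (0.31, adjusted p = 0.0496).

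The same C26 livers enter both comparisons, so the values are given side by side. Relative to CT, C26 livers had log2 fold changes of -0.41 for Zfp445, -0.75 for Zfp329, -1.21 for Zfp970, -1.65 for Zfp385b, -0.31 for Zfp369, -0.55 for Zfp397, -0.39 for Zfp715 and -0.28 for Zfp950, all called, of -0.18 for Zfp644, not called (adjusted p = 0.0711), and of 0.50 for Zfp281, called. Zfp644 in this comparison was called without C26 replicate 1 (-0.20, adjusted p = 0.0498), C26 replicate 3 (-0.21, adjusted p = 0.0344) or CT replicate 6 (-0.21, adjusted p = 0.0463). With the length and GC trend taken out, Zfp369 (-0.20, adjusted p = 0.0926) and Zfp950 (-0.11, adjusted p = 0.164) were not called in C26 relative to CT. C26-TDCA livers relative to CT had 0.08 for Zfp445, -0.01 for Zfp329, -0.51 for Zfp970 and -1.17 for Zfp385b. Zfp281 lay further from CT with TDCA, at 0.75 to 0.86 over the 22 fits that left out 1 library, called in all. Zfp644 was above CT, at 0.21 to 0.27 over those fits, also called in all. Zfp369 (0.09 to 0.18), Zfp397 (-0.18 to -0.1), Zfp715 (-0.09 to 0.04) and Zfp950 (0.03 to 0.11) were called in none of them.

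**Figure D3:**
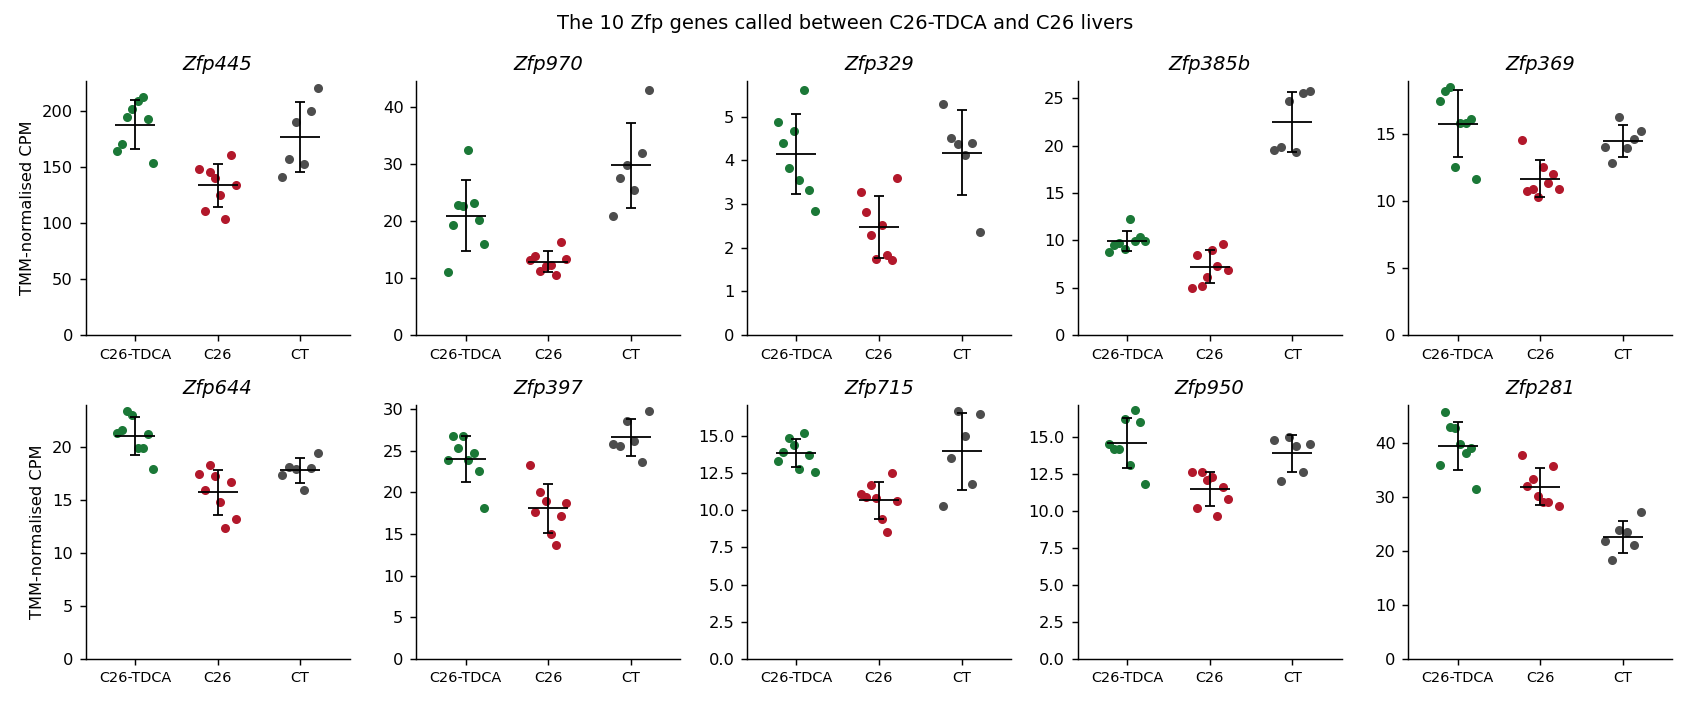
Levels in TMM-normalised CPM (y axes from 0) of the 10 zinc finger genes called between C26-TDCA and C26 livers, with CT livers at the right of each panel; points are mice (n = 8, 8 and 6), bars the mean and SD. Zfp715 alone has no overlap between the C26-TDCA and C26 points, and the share of all genes tested without overlap was not taken.

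The libraries of these groups also differed in how levels followed the GC content of transcripts. Over all genes tested, the slope of log2 CPM on GC was -0.0106 to 0.0086 per percentage point in C26-TDCA livers, 0.0017 to 0.0266 in C26 livers and -0.0160 to -0.0005 in CT livers. The means were -0.00270 ± 0.00618 in C26-TDCA and 0.0106 ± 0.00795 in C26 (SD, n = 8 each, two-sided exact permutation test, p = 0.00171, adjusted p = 0.00385 over 9 tests of 3 library measures), so relative to C26, GC-poor genes read higher with TDCA. Of the 10 called members, 9 lie in the class with the lowest GC. There the median log2 fold change was 0.15 for 175 members and 0.08 for all genes, and 5.14% of members and 4.37% of all genes were called higher.

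Length and GC were removed together, so the part of each was not told apart. With this trend removed from each library, no member was called in either direction (edgeR), 25 had an unadjusted p under 0.05 and the members' median log2 fold change was 0.00. Among all genes tested, 1633 had such a p in that fit, and the median was -0.03. Of the 10 genes, Zfp385b kept its log2 fold change of 0.47 (adjusted p = 0.107), Zfp970 had 0.60 (adjusted p = 0.105), Zfp329 0.47 (adjusted p = 0.267), Zfp445 0.29 (adjusted p = 0.159) and Zfp950 0.10 (adjusted p = 0.569). Over all 14785 genes, 9 were higher and 8 lower in that fit.

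**Figure D4:**
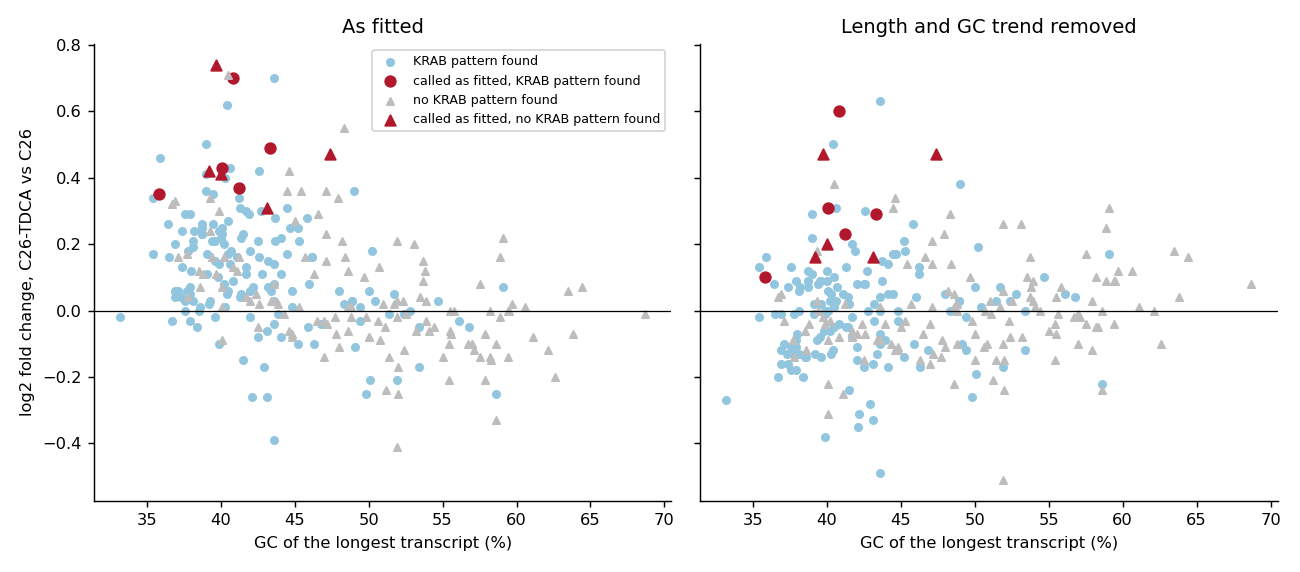
Log2 fold change in C26-TDCA relative to C26 livers (y axes) of the 289 zinc finger genes against the GC content of the longest transcript (x axes, in percent), as fitted on the left and after removal of the length and GC trend on the right. The 10 genes called as fitted are in red, 9 of them at a GC of 46.3% or less, and none was called with the trend removed.

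The calls moved with single libraries, and 3 of the 10, Zfp445, Zfp369 and Zfp644, were called in all 22 fits that left out 1 library. Without C26 replicate 1, 22 members were called higher and without C26-TDCA replicate 8, 17. Without C26-TDCA replicate 4 there were 3 calls, without C26-TDCA replicate 3 or C26 replicate 6 there were 4, without C26 replicate 5 or C26-TDCA replicate 6 there were 5, and without C26-TDCA replicate 2 there were 6. Zfp397 was lost in 3 fits, Zfp950 in 4, Zfp970 in 5, Zfp715 in 7, Zfp329 in 9, Zfp385b in 11 and Zfp281 in 18. A fit of the C26-TDCA and C26 libraries alone called 3. The shares of all genes called in these fits were not taken, so whether the members moved more than other genes is not known.

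The third comparison, C26-TDCA with CT, had 77 members higher, 33 lower and 179 not called, a called share of 38.1% against 57.0% of all genes tested (28.7% higher and 28.2% lower). It uses the same CT livers as the first. The median log2 fold change was 0.09 for the members and 0.01 for all genes. After removal of that trend on length and GC there were 64 higher and 58 lower, with a median of 0.01. In that fit all genes tested had 3802 higher and 5053 lower, with a median of -0.07. The size of the excess of higher calls thus depended on the trend, and the members' median stood above that of all genes in both fits. Against a log2 fold change of 0.5, 16 were higher and 6 lower, where 13.5% and 10.6% of all genes were (24.0% in either direction).

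Apart from genes already given, Zfp810 (0.99 ± 0.12, adjusted p = 1.59e-07), Zfp53 (0.96 ± 0.15, adjusted p = 5.58e-06) and Zfp40 (0.95 ± 0.16, adjusted p = 2.27e-05) were among the 10 largest log2 fold changes upward in C26-TDCA. Zfp810, a KRAB gene, had medians of 12.8 CPM in C26-TDCA, 10.8 CPM in C26 and 5.83 CPM in CT, with both tumour groups above all CT livers. Among the 10 largest falls, Zfp276 (-0.75 ± 0.11, adjusted p = 4.11e-06) had 10.2 to 12.4 CPM in C26-TDCA and 16.7 to 23.4 CPM in CT. Those ranges are apart, but the gene overlaps Fanca and Vps9d1 on the opposite strand. Zfp354b was lower in C26-TDCA (-0.70 ± 0.20, adjusted p = 0.00377).

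Zfp964, at medians of 0.884 CPM in C26-TDCA and 1.49 CPM in CT, had -0.67 ± 0.26 (adjusted p = 0.0316). It passed the 1 CPM limit through CT, so this direction was partly set by the rule, and the call was lost without C26-TDCA replicate 2, 3 or 4 or CT replicate 1, 5 or 7 (adjusted p between 0.0527 and 0.0868). For Zfp36, leaving out CT replicate 1 gave a log2 fold change of 0.49 (adjusted p = 0.0351) in C26-TDCA relative to CT, against 0.22 (adjusted p = 0.402) with it. Zfp970 was lower in C26-TDCA than in CT (adjusted p = 0.0121), a call lost without CT replicate 8 (-0.37, adjusted p = 0.0567).

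Whether the class as a whole stood higher or lower depended on the scale. As a share of all counts, the 289 genes made up 0.293 to 0.332% in C26-TDCA, 0.244 to 0.304% in C26 and 0.362 to 0.395% in CT, so every tumour-bearing liver was below every CT liver. After TMM scaling their summed level was 3132 to 3531 CPM in C26-TDCA, 2775 to 3256 CPM in C26 and 3069 to 3280 CPM in CT, and the groups overlapped. The 20 most abundant genes took 36.7% ± 1.35 of counts in C26-TDCA, 37.6% ± 2.26 in C26 and 21.8% ± 0.122 in CT (mean ± SD, n = 8, 8 and 6). The difference of that share between C26 and CT had a two-sided exact permutation p of 6.66e-04 (adjusted 0.00200).

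**Figure D5:**
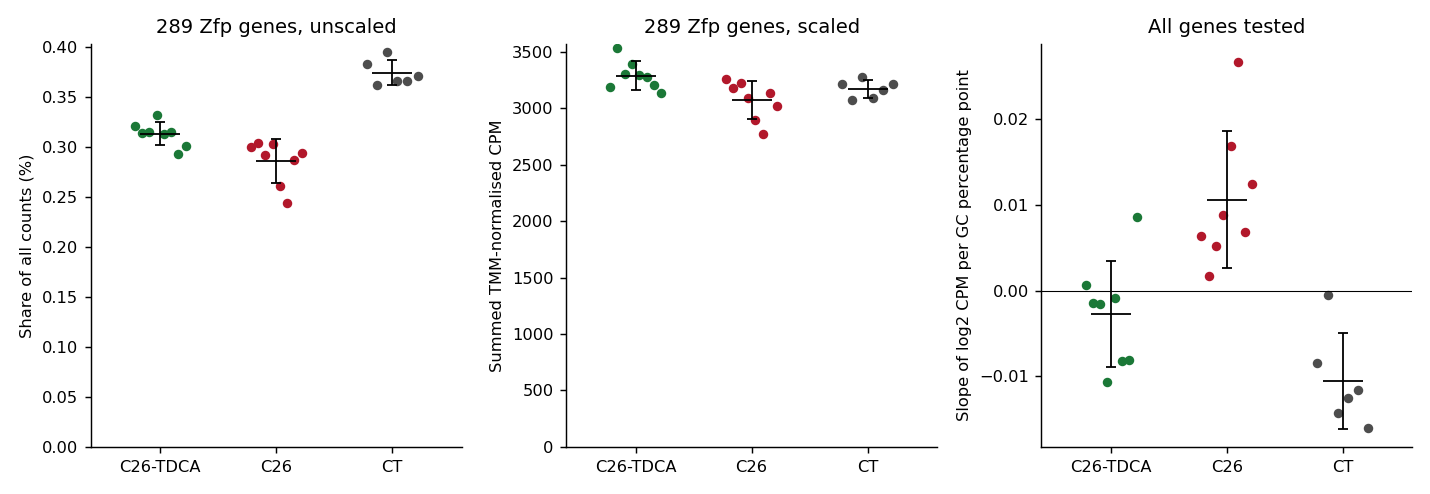
Share of all counts in percent (left, y axis from 0) and summed TMM-normalised CPM (middle, y axis from 0) of the 289 zinc finger genes, and slope of log2 CPM on transcript GC over all genes tested (right), per library in C26-TDCA, C26 and CT; points are mice, bars the mean and SD. The share is lower in all tumour-bearing livers than in CT, the scaled sum overlaps, and the slopes are lower in C26-TDCA than in C26 on average.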

How the data were processed

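Liver polyA RNA of 22 mice was analysed as the raw read counts per Ensembl gene that the authors deposited, 1 column per mouse. The submitters' processing notes name GRCm38 as the build and list HISAT2 2.2.1, featureCounts 2.0.3 and Trimmomatic 0.40 among the tools, with DESeq2 1.42.0. The strand setting, the annotation and the handling of multi-mapping reads are not given in those sources, so the counts of the 124 members that overlap another gene, and of near copies, are uncertain.

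The counts were tested with edgeR 4.0.16 in R 4.3.3 (TMM, filterByExpr with a minimum count of 10, 14785 genes kept and 663 removed, all 289 members kept, 1 mean per group over 22 libraries, quasi-likelihood F test, Benjamini-Hochberg at 0.05 over all genes). Levels are TMM-normalised CPM. Standard errors are approximate (the size of the log2 fold change divided by the root of its F statistic). DESeq2, limma 3.58.1 (voom with quality weights), other scalings, filters, a loess trend on length and GC (span 0.3) and each library left out were alternatives. The fit was tested on simulated data. The members and lists were chosen with earlier results of these data known.

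Symbols, lengths and overlaps are from GENCODE M21, an annotation of GRCm38, whose translated proteins were used to count fingers in place of RefSeq proteins. Named genes were the 10 called members with the highest and the 10 with the lowest log2 fold change in the comparisons with CT, those called between C26-TDCA and C26, members of 5 role lists, the 5 most abundant, those nearest the 1 CPM limit and up to 4 genes of other lists. The text names some of the genes this rule gives.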

Additional observations from a re-analysis of the deposited data

Results flagged for a closer look

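In 192 sets of the levels of 64 named members in 3 groups, 12 had 1 library whose gap to its nearest neighbour was large for the range of the group by Dixon's 95% criterion, and chance alone flags about 1 in 20 such sets. All values are TMM-normalised CPM. In C26-TDCA livers, Zfp141 was 14.6 in replicate 2 where the others were 8.81 to 9.97, Zfp385b was 12.3 in replicate 5 (others 8.76 to 10.4), Zfp687 was 17.3 in replicate 1 (others 11.2 to 14.0) and Zfp750 was 27.6 in replicate 8 (others 18.8 to 21.9). Replicate 7 of the same group was low in Zfp335, at 6.60 (others 11.6 to 16), and in Zfp809, at 29.0 (others 39.0 to 43.0).

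In C26 livers, Zfp276 was 19.5 in replicate 2 (others 10.1 to 13.7), Zfp28 was 0.668 in replicate 5 (others 1.08 to 1.39), and replicate 3 was high in Zfp451, at 17.4 (others 12.9 to 14.9), and in Zfp592, at 41.8 (others 34.9 to 38.0). In CT livers, Zfp598 was 78.8 in replicate 2 (others 69.6 to 72.4) and Zfp750 was 16.3 in replicate 7 (others 10.4 to 11.4). For Zfp750, the C26-TDCA and CT livers did not overlap with the high CT library included.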

How the results depend on the processing

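Leaving out 1 library at a time gave 61 to 70 members higher and 47 to 60 lower in C26 relative to CT (median log2 fold change -0.01 to 0.04), 67 to 79 higher and 28 to 38 lower in C26-TDCA relative to CT (0.08 to 0.11), and 3 to 22 higher and none lower in C26-TDCA relative to C26 (0.04 to 0.08). Members called higher in C26-TDCA relative to C26 numbered 3 with those 2 groups alone, 0 after removal of the length and GC trend, 1 with the replicate block and the trend removed, 0 against a log2 fold change of 0.5 and 18 by DESeq2. The shares of all genes called were not taken for the fits with 1 library left out, of 2 groups, with the replicate block or by DESeq2. In C26-TDCA relative to CT, lower calls were 58 with the trend removed and 52 with the block as well, and the median was 0.01 in both. All genes tested had 5053 lower calls and a median of -0.07 with the trend removed. Against 0.5, 16 members were higher and 6 lower, and 51 were higher among members of at least 5 CPM. In C26 relative to CT, 15 were higher and 6 lower against 0.5, and 42 were higher at 5 CPM or more, where fewer members were counted. The direction turned with the trend removed for Zfp598 in C26 relative to CT (-0.14, and -0.13 with the replicate block) and for Zfp592 in C26-TDCA relative to CT (-0.04, and -0.03 with the block). Beyond the fewer members counted, the cause of these changes was not tested.

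The labels number the mice alike across groups without saying that a number marks a shared source. Same-numbered libraries had correlations of -0.204 to 0.337 in their deviations from the group means, over 0.1 in 5 of 8 numbers between C26-TDCA and C26, and in 10 of 40 comparisons of a library with another group its own number correlated best. As not every number was over 0.1, the mice were not treated as paired; whether some share a source is not known. A fit with the replicate block called 61 higher and 54 lower in C26 relative to CT, 8 and 0 in C26-TDCA relative to C26, and 68 and 31 in C26-TDCA relative to CT. Depth limits the lowest members: 3 counts are 0.106 to 0.182 CPM of the unscaled library total. In TMM-normalised CPM, Zfp248 was at 0.113 in CT replicate 5 and Zfp940 at 0.137 in C26 replicate 6. In these libraries 3 counts were 0.136 and 0.121 CPM of the unscaled total, and the TMM factors were 1.2 and 0.878.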
